A study of Mus musculus with 69 samples.

Results

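The genes described here are the mouse axon guidance ligands and receptors, taken by gene symbol as the class 3 to 7 semaphorins, plexins A to D, neuropilins, Slits, Robo receptors, netrins, Dcc, the Unc5 receptors, ephrins and Eph receptors. The symbols matched 66 genes over 3 deposited tables, of which 54 were listed among 16893 gene names in the TKOM table, 66 among 18799 in the PRAD and NEPC table, and 63 among 18966 in the genotype table. After a filter on low counts, 46, 66 and 60 of them were tested beside 15733, 18483 and 18430 genes in all. They comprised 20 semaphorins, 11 plexins and neuropilins, 5 Slit and Robo genes, 9 genes of the netrin, Dcc and Unc5 group, 8 ephrins and 13 Eph receptors. One of the 66, Unc5cl, was matched through its symbol, which derives from its likeness to Unc5c. It stayed below 1 CPM in every group. CPM here is the count of a gene relative to the library total, scaled by the trimmed mean of M values within each table.

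Axon guidance molecules steer growing axons by attraction and repulsion, and the same ligands and receptors set cell contact, migration and boundary formation in epithelia. Secreted class 3 semaphorins act through neuropilins paired with plexins, whereas most other semaphorins are membrane-bound and engage plexins directly. Slits are secreted ligands of Robo receptors, netrins bind Dcc and the Unc5 receptors, and membrane-tethered ephrins bind Eph receptor tyrosine kinases on the neighbouring cell. In adult epithelia several of these genes, Epha2 and the B-class plexins among them, are expressed outside any neural setting.

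The series profiled mouse prostate organoids by bulk RNA sequencing in 69 libraries, 3 for each of 23 groups. Its design text states the question as the passage of prostate adenocarcinoma to neuroendocrine prostate cancer. The TKOM table held organoids kept in suspension for 30 days (label D30) and organoids in Matrigel, a basement membrane extract, for which no day is given, so that time and matrix cannot be told apart. The second table held PRAD organoids at day 8 under ARi, YAPi, NOTCHi, ARi_NOTCHi, ARi_YAPi, YAPi_NOTCHi or COMBO, PRAD organoids at day 42 under COMBO, 3 lines named NEPC-1, NEPC-2 and NEPC-3, and PRAD organoids at day 8 in DMSO, the solvent control. The third held TKO, PtP and WT organoids at day 8, each under YAPi_NOTCHi, COMBO and DMSO. The labels do not state which genes are altered in TKOM, PRAD, TKO or PtP organoids, which agents the inhibitor names stand for, what COMBO contains, how the NEPC lines arose, or whether replicates were separate cultures. The p-values below therefore measure the spread between libraries, which may be technical.

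Library totals were 31460616 to 40458465 estimated counts in the TKOM table, 22799838 to 77790816 in the PRAD and NEPC table and 18629462 to 92280307 in the genotype table. The epithelial markers Epcam and Cdh1 summed to 938 CPM or more in every library. The neuroendocrine markers (Chga, Chgb, Syp, Insm1 and Foxa2, 5 of 5 measured) summed to 3142 to 3292 CPM in COMBO day 42, 749.7 to 799.9 CPM in YAPi_NOTCHi and 0.115 to 0.657 CPM in DMSO PRAD organoids. The basal markers (Krt5, Krt14, Krt15 and Trp63, 4 of 4) summed to 2.10 to 2.35 CPM, 11078 to 11802 CPM and 15402 to 16102 CPM in the same 3 groups. The endothelial list had 2 of its 6 genes in the PRAD and NEPC table, and these summed to at most 3.35 CPM, while the fibroblast list had Pdgfra and Dcn, 2 of its 6 genes. Dcn averaged 1019 ± 17.6 CPM in ARi_NOTCHi and 84.1 ± 2.23 CPM in DMSO, and Pdgfra 0.0540 ± 0.0468 CPM and 0.0658 ± 0.0792 CPM. In bulk RNA, fewer cells of a type and less RNA per cell cannot be told apart, and the part of these cell type markers in the results below was not tested. PRAD_YAPi replicate 1 carries the lane tag L001, against L004 for the other 35 libraries of its table, and without it 15 members rose and 1 fell under YAPi, against 17 and 1 with it.

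A gene was said to have risen or fallen where edgeR's quasi-likelihood test gave a Benjamini-Hochberg adjusted p under 0.05 over all tested genes and the fitted change was at least 2-fold. All log2 fold changes are given with their standard errors, and group levels as mean ± SD over 3 libraries. The PRAD arms share the same 3 DMSO libraries.

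In PRAD organoids kept in DMSO the most abundant members were plexins, ephrins, semaphorins and Eph receptors. Per kilobase of exon, which allows levels to be set side by side between genes, Plxnb2 led the plexins and neuropilins of DMSO organoids at 89.2 ± 4.08 CPM per kb, and Plxnb1 followed at 14.7 ± 0.364. The class B ephrins Efnb2 and Efnb1 stood at 39.6 ± 0.556 and 32.2 ± 2.24 CPM per kb, and the GPI-anchored Efna1, a high-affinity ligand of Epha2, at 30.7 ± 1.98. Among the Eph receptors, Epha1 (21.8 ± 0.765 CPM per kb) and Epha2 (16.8 ± 0.874) were highest. Sema4b, Sema3c and Sema3f led the semaphorins at 30.8, 27 and 26.6 CPM per kb. By contrast 10 members (Dcc, Epha5, Epha8, Epha10, Ntn1, Plxna4, Plxnc1, Sema5b, Unc5c and Unc5d) had at most 3 counts over the 3 DMSO libraries together. Across all groups, 31 of 54, 30 of 66 and 38 of 63 members were at 1 CPM or more in every group of the TKOM, PRAD and NEPC, and genotype tables.

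**Figure D1:**
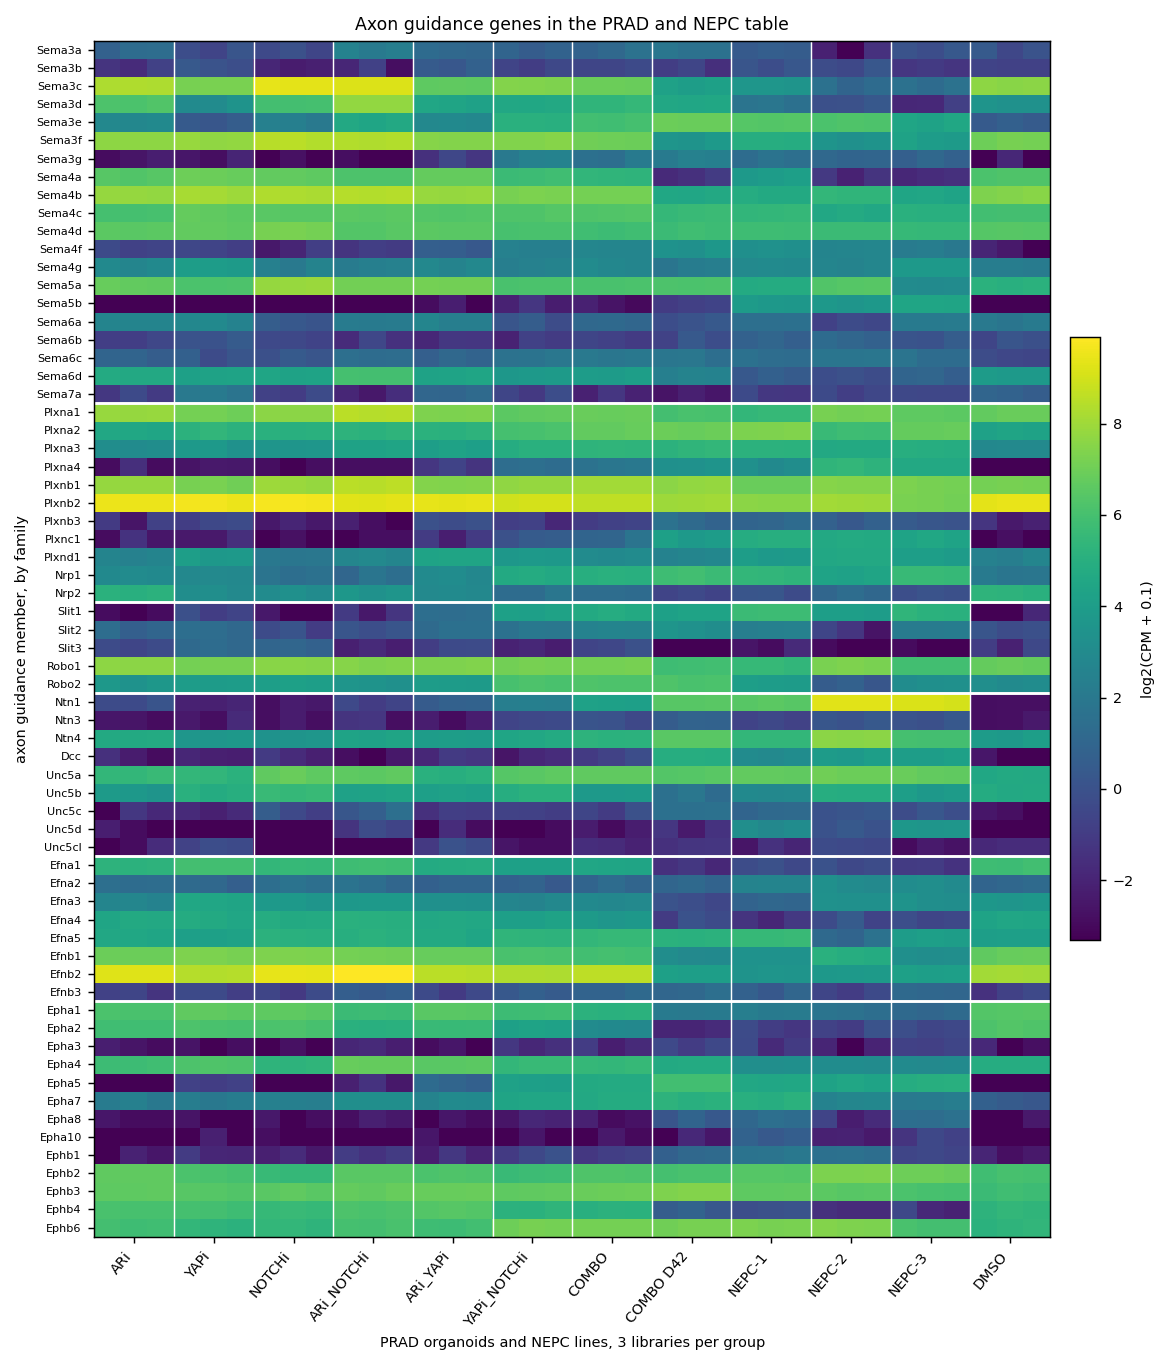
All 66 members, grouped by family from semaphorins at the top to Eph receptors at the bottom, in the 36 libraries of PRAD organoids and NEPC lines. Colour gives log2(CPM + 0.1); columns are single libraries, 3 per group, with the DMSO group at the right.

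With YAPi alone 17 of 66 members rose and 1 fell, where 12.6% of all genes rose and 2.87% fell. The single gene that fell was Nrp2, the neuropilin that serves as receptor for Sema3f and Sema3c. It had 8.96, 9.04 and 7.41 CPM under YAPi, against 39, 37.1 and 33.9 CPM in DMSO (log2 fold change -2.10 ± 0.09, adjusted p = 6.74e-23). The groups did not overlap for Nrp2, nor for 62.4% of all genes. NOTCHi alone gave a like level, 8.17, 9.83 and 8.21 CPM (log2 fold change -2.08 ± 0.10, adjusted p = 5.81e-22), whereas ARi left 34.4, 32.4 and 35.7 CPM (log2 fold change -0.10 ± 0.08, not called). Several genes that were barely counted in DMSO were already detectable under YAPi. Epha5, an Eph receptor of neural tissue, had 0.490, 0.425 and 0.478 CPM under YAPi and 0 in the 3 DMSO libraries, at least 11.3-fold higher when the DMSO group is set at 3 counts in all. The secreted Robo ligand Slit1 had 0.846, 0.425 and 0.558 CPM under YAPi, against 0, 0 and 0.178 CPM in DMSO (adjusted p = 5.88e-07).

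NOTCHi alone raised 13 of 66 members and lowered 5 (6.25% and 5.37% of all genes). Its 2 largest rises among members at 1 CPM or more were in the semaphorins Sema5a and Sema3d. Sema5a, a membrane semaphorin with thrombospondin repeats, had 224, 233 and 237 CPM under NOTCHi, against 34.4, 32.3 and 34.3 CPM in DMSO (log2 fold change 2.78 ± 0.04, adjusted p = 3.73e-40). Sema3c, a secreted ligand of neuropilin and plexin complexes, had 675, 654 and 661 CPM under NOTCHi, against 199, 186 and 194 CPM in DMSO (log2 fold change 1.78 ± 0.04, adjusted p = 4.15e-35). All NOTCHi libraries lay above all DMSO libraries for both genes, where 57.2% of all genes did not overlap, in either direction. The netrin receptor Unc5a rose to 106 ± 8.95 CPM, against 24.8 ± 1.26 CPM in DMSO, and Efnb2 to 692 ± 2.31 CPM, against 271 ± 3.81 CPM. The 5 that fell were Nrp2, Sema3b, Sema6a, Sema7a and Unc5cl, and Nrp2 alone among them was above 10 CPM in DMSO. The basal markers summed to 31684 to 32138 CPM under NOTCHi and 15402 to 16102 CPM in DMSO, the luminal markers (5 of 5 measured) to 2079.7 to 2095 CPM and 2992 to 3027 CPM, and Dcn averaged 357 ± 8.77 CPM and 84.1 ± 2.23 CPM. Their part in these changes was not tested. PRAD_NOTCHi_D8 replicate 2 stood apart from its group, with a mean chi-square per gene of 24.7 and 23.3 against replicates 1 and 3, which differed from each other by 2.57. Without it 12 members rose and 5 fell, Robo2 being no longer called.

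ARi alone raised 14 of 66 members and lowered 2 (6.51% and 4.6% of all genes). Sema3d, a secreted class 3 semaphorin, had 74.0, 72.0 and 78.3 CPM under ARi, against 11.5, 10.2 and 10.3 CPM in DMSO (log2 fold change 2.81 ± 0.07, adjusted p = 6.01e-31). Its relative Sema3e, which binds Plxnd1 without a neuropilin, had 7.00, 6.95 and 7.67 CPM under ARi, against 1.23, 1.58 and 1.29 CPM in DMSO (log2 fold change 2.40 ± 0.14, adjusted p = 2.81e-19). The ARi and DMSO libraries did not overlap for either gene, nor for 58.5% of all genes. The 2 that fell were the GPI-anchored Sema7a and the netrin receptor Unc5b. The call for Unc5b (13.1 ± 1.76 CPM under ARi, 26.4 ± 1.2 CPM in DMSO) was lost under DESeq2, under another scaling and without PRAD_DMSO_D8 replicate 1 or PRAD_ARi_D8 replicate 3, so that Unc5b was not called in those fits (log2 fold change between -0.99 and -0.92).

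ARi_NOTCHi raised 24 of 66 members and lowered 7 (14% and 11.4% of all genes), and ARi_YAPi raised 26 and lowered 3 (17.7% and 5.53%). Without PRAD_ARi_NOTCHi_D8 replicate 3, 4 members in place of 7 fell under ARi_NOTCHi, and Sema3b, Sema6b and Slit3 were no longer called. Sema3d reached its highest level of the table under ARi_NOTCHi, at 219, 218 and 215 CPM, against 11.5, 10.2 and 10.3 CPM in DMSO (log2 fold change 4.34 ± 0.07, adjusted p = 4.58e-39). Efnb2, the transmembrane ligand of EphB receptors, likewise had 932, 957 and 953 CPM there, against 268, 275 and 269.5 CPM in DMSO (log2 fold change 1.80 ± 0.03, adjusted p = 5.21e-41). Dcn had its highest level of the table in this arm too, as given above, while Pdgfra did not, and their part in these values was not tested. Under ARi_YAPi, Epha5 had 2.37, 1.88 and 1.55 CPM and Slit1 had 2.66, 2.55 and 2.77 CPM, against 0 in all 3 libraries and 0, 0 and 0.178 CPM in DMSO. Epha4, which binds ephrins of both classes, averaged 111.5 ± 2.68 CPM under ARi_NOTCHi, 92.2 ± 1.55 CPM under ARi_YAPi and 29.3 ± 0.270 CPM in DMSO, and rose in both arms.

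YAPi_NOTCHi raised 27 of 66 members and lowered 8, where 20.6% of all genes rose and 9.89% fell. The median log2 fold change was 0.83 (0.65 with members at 0 in 1 group set to their bound) over the members and 0.05 over all genes. By family, 7 semaphorins rose and 3 fell of 20, 6 plexins and neuropilins rose and 1 fell of 11, 3 Slit and Robo genes rose and 1 fell of 5, 5 of the netrin group rose and 1 fell of 9, 2 ephrins rose and 1 fell of 8, and 4 Eph receptors rose and 1 fell of 13. The members that fell were Efna1, Epha2, Nrp2, Sema6a, Sema6b, Sema7a, Slit3 and Unc5cl. The neuroendocrine and neuron marker lists rose in the same arm, all 5 measured genes of each, and their part in the members' change was not tested.

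Among the Eph receptors Epha5 rose while Epha2 fell. Epha5 had 18.6, 17.4 and 16.9 CPM under YAPi_NOTCHi and 0 in all 3 DMSO libraries, at least 419.9-fold higher (adjusted p = 1.71e-28). Epha2, the receptor typical of epithelial cells, had 18.1, 20 and 18.8 CPM under YAPi_NOTCHi, against 74.8, 82.9 and 77.9 CPM in DMSO (log2 fold change -2.05 ± 0.06, adjusted p = 1.26e-29). Epha7 rose to 22.4 ± 0.889 CPM, against 1.32 ± 0.211 CPM in DMSO (log2 fold change 4.06 ± 0.13, adjusted p = 3.34e-28), and Ephb6, an Eph receptor without kinase activity, to 137 ± 8.78 CPM, against 38.2 ± 3.26 CPM (log2 fold change 1.85 ± 0.06, adjusted p = 6.44e-28). None of these 4 genes overlapped between the groups, and neither did 75.6% of all genes. Among the ligands, Efna1 fell to 18.2 ± 0.201 CPM, against 56.2 ± 3.62 CPM in DMSO (log2 fold change -1.63 ± 0.05, adjusted p = 5.97e-28), while Efna5 rose to 38.5 ± 1.35 CPM, against 17.6 ± 0.292 CPM (log2 fold change 1.13 ± 0.07, adjusted p = 3.08e-18).

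The 2 neuropilins moved in opposite directions under YAPi_NOTCHi. Nrp1, the neuropilin that binds Sema3a, had 26, 27.6 and 24.8 CPM, against 4.34, 3.37 and 3.57 CPM in DMSO (log2 fold change 2.79 ± 0.10, adjusted p = 2.32e-27). Nrp2 had 2.45, 2.45 and 3.56 CPM, against 39, 37.1 and 33.9 CPM in DMSO (log2 fold change -3.70 ± 0.11, adjusted p = 1.76e-29). The plexins that rose were Plxna2, Plxna3, Plxna4, Plxnc1 and Plxnd1. Plxna3 averaged 32.2 ± 2.38 CPM under YAPi_NOTCHi and 7.35 ± 0.178 CPM in DMSO (log2 fold change 2.13 ± 0.09, adjusted p = 8.47e-25), and Plxna4 had 2.56, 2.70 and 2.47 CPM against 0 in all 3 DMSO libraries, at least 61.3-fold higher. Plxnb2, the most abundant plexin per kilobase, averaged 511 ± 21.9 CPM, against 688 ± 31.5 CPM (log2 fold change -0.43 ± 0.04, not called).

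The start-site regions of the Eph receptors and neuropilins that moved apart are printed here because each pair had members of 1 family with opposite changes under YAPi_NOTCHi and in the NEPC lines. They are RefSeq promoters of mouse GRCm38.p6, from 250 bases before to 50 bases after the start, given 5′ to 3′ on the gene's strand, with capitals marking GGAATG (a TEAD motif), CAGCTG (an E-box) or TGGGAA (an RBPJ motif) on either strand. The regions are chr4:141300971-141301270, plus strand, for Epha2, chr5:84417333-84417632, minus strand, for Epha5, chr1:62703067-62703366, plus strand, for Nrp2 and chr8:128358823-128359122, plus strand, for Nrp1.
Epha2: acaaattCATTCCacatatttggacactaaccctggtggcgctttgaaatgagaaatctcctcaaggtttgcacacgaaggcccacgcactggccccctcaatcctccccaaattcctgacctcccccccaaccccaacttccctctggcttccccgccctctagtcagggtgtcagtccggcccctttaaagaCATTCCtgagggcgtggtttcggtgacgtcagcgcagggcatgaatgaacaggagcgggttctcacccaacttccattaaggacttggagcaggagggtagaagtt
Epha5: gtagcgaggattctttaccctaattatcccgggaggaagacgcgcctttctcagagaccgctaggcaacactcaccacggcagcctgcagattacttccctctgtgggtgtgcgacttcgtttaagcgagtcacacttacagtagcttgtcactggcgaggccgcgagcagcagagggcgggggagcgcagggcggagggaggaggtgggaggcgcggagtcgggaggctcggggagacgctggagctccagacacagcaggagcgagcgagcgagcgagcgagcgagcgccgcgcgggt
Nrp2: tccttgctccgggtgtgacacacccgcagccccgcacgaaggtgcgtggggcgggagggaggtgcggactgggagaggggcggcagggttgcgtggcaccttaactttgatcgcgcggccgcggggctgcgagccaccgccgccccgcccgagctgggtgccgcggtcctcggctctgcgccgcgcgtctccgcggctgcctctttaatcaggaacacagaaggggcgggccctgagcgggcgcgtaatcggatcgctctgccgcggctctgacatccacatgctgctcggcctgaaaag
Nrp1: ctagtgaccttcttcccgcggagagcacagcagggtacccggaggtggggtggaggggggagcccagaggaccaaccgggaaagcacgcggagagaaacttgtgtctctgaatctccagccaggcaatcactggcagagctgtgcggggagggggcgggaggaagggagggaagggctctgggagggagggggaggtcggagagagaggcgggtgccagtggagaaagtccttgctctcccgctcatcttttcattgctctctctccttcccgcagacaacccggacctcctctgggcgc
The Epha2 region held the TEAD motif at 2 places, which begin 243 and 56 bases before the start, and the other 3 regions held none of the 3 motifs. The Epha5 region was 64.3% G and C with 30 CpG dinucleotides, where the median over all promoters was 52.7% and 7. The Nrp2, Nrp1 and Epha2 regions were 70.7%, 64% and 54.7% G and C, with 37, 14 and 10 CpG dinucleotides. In the Eph pair the gene that rose, Epha5, had more CpG dinucleotides, and in the neuropilin pair the gene that fell, Nrp2, had more. The part of CpG content in these changes was not tested.

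Over the 23 members that rose both under YAPi_NOTCHi in PRAD and in the NEPC lines against DMSO, 18 had a listed promoter, with 20 regions in all. The 2 comparisons share their DMSO libraries. The E-box was in 2 of the 20 regions, the TEAD motif in 2 and the RBPJ motif in 4. Of those with the RBPJ motif, 2 are overlapping regions of Epha7 that hold the same match. Over the 5 members that fell in both, the counts were 1, 1 and 0 of 6 regions. All 66 members had 72 regions for 56 genes, of which 9, 9 and 15 held the 3 motifs, beside 16.3%, 14.7% and 25.6% of 32851 mouse promoters of 300 bases. A match is a run of letters and not a site shown to be bound. In mm10 coordinates the genes lie at chr4:141301240-141329384 (Epha2), chr5:84054761-84417382 (Epha5), chr1:62703285-62818695 (Nrp2) and chr8:128358604-128503363 (Nrp1).

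Slit1 had 18.4, 17.6 and 19.3 CPM under YAPi_NOTCHi, against 0, 0 and 0.178 CPM in DMSO (adjusted p = 6.79e-29). Robo2, one of its receptors, had 66.0, 74.0 and 67.6 CPM, against 9.07, 8.06 and 8.38 CPM in DMSO (log2 fold change 3.02 ± 0.07, adjusted p = 3.08e-33). Ligand and receptor were thus both higher in all 3 treated libraries, while Robo1 (139 ± 5.14 CPM and 112.4 ± 2.91 CPM in DMSO) was not called. Ntn1, the classical netrin, had 5.01, 5.12 and 5.02 CPM under YAPi_NOTCHi, against 0.0384, 0.0438 and 0.0446 CPM in DMSO (adjusted p = 1.10e-26), and Unc5a averaged 92.1 ± 7.26 CPM, against 24.8 ± 1.26 CPM (log2 fold change 1.89 ± 0.07, adjusted p = 8.74e-26). Dcc, the attractive netrin receptor, was called as risen but remained below 1 CPM, at 0.0691, 0.178 and 0.218 CPM, against 0.0769, 0 and 0 CPM in DMSO. Of the semaphorins, Sema3e had 33.5, 34 and 32.9 CPM, against 1.23, 1.58 and 1.29 CPM in DMSO (log2 fold change 4.62 ± 0.10, adjusted p = 2.18e-34). Sema4f and Sema3g, at 5.25 ± 0.227 CPM and 5.07 ± 1.01 CPM under YAPi_NOTCHi, were both under 0.3 CPM in every DMSO library.

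**Figure D2:**
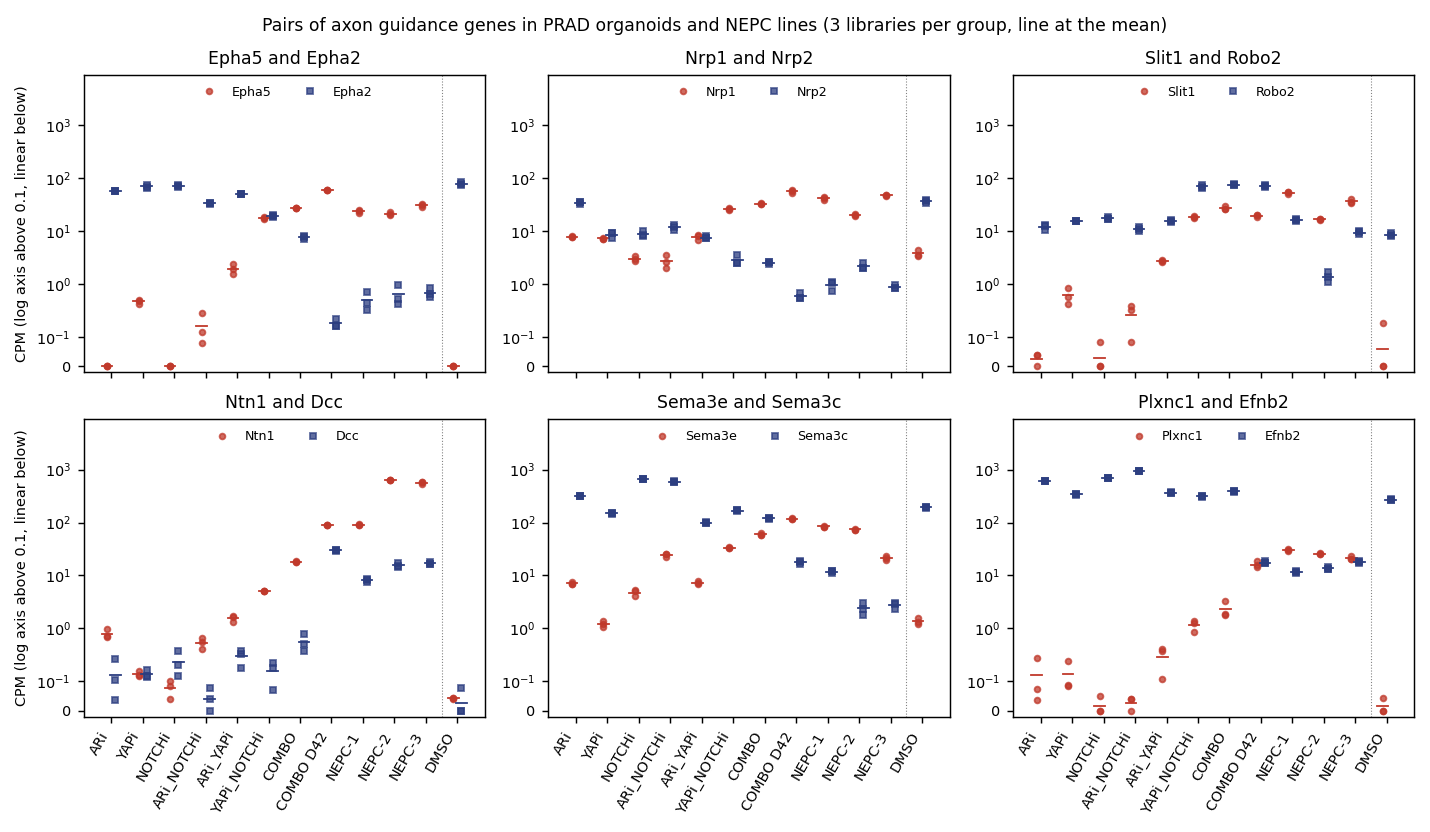
CPM of 12 members in PRAD organoids and NEPC lines, 2 genes per panel, on an axis that is logarithmic above 0.1 and linear below. Points are libraries (3 per group), lines are means, and the DMSO group stands right of the dotted line; Epha5, Slit1 and Ntn1 lie at or near 0 in DMSO and above 1 CPM under YAPi_NOTCHi and COMBO and in the NEPC lines, while Epha2 and Nrp2 lie below 1 CPM at COMBO day 42.

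Whether YAPi and NOTCHi acted beyond the sum of their single log2 changes was tested as an interaction term, which was above 0 for 11 members and below 0 for 19, past the same thresholds (11.4% and 11.1% of all genes). For Nrp1 the term was 2.20 ± 0.17 (adjusted p = 2.49e-15), with means of 26.1, 7.19, 2.99 and 3.76 CPM under YAPi_NOTCHi, YAPi, NOTCHi and DMSO. For Sema3e it was 2.96 ± 0.22 (adjusted p = 2.23e-15), with means of 33.5, 1.23, 4.76 and 1.37 CPM in the same order. These genes rose with the pair by more than the single arms add up to. Sema5a showed the reverse, with 70.7, 71.8, 232 and 33.7 CPM and a term of -2.80 ± 0.06 (adjusted p = 2.81e-35). Epha2 was within 69.1 to 78.5 CPM as a mean under YAPi, NOTCHi and DMSO and 19 CPM under the pair, with a term of -1.73 ± 0.08 (adjusted p = 5.74e-22). For Nrp2 the term was 0.48 ± 0.16 (adjusted p = 0.0112, not called), and each single arm had already lowered it. Of the 20 semaphorins, 9 had terms below 0, as did 4 of the 8 ephrins, among them Sema3c (-1.60 ± 0.05) and Efnb2 (-1.46 ± 0.04), which NOTCHi raised alone but not with YAPi. Without PRAD_NOTCHi_D8 replicate 2 the term was above 0 for 12 members and below 0 for 20. Leaving out each library in turn gave 9 to 12 members above 0 and 17 to 22 below. The terms of Slit1 and Sema3g rest on DMSO counts at or near 0. Their calls were lost without PRAD_DMSO_D8 replicate 3 (Slit1) and replicate 2 (Sema3g), and those of Sema4f and Sema7a under several alternatives.

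COMBO at day 8 raised 31 of 66 members and lowered 5 against DMSO (22.6% and 15.2% of all genes). Set against YAPi_NOTCHi directly, 4 members were higher and 3 lower (3% and 5.16% of all genes). Ntn1 was the leading difference at 1 CPM or more, with 18.7, 18.2 and 17.7 CPM under COMBO, against 5.01, 5.12 and 5.02 CPM under YAPi_NOTCHi (log2 fold change 1.85 ± 0.06, adjusted p = 7.70e-27). Epha2 was lower again, at 8.15, 7.70 and 7.08 CPM under COMBO, against 18.1, 20 and 18.8 CPM under YAPi_NOTCHi (log2 fold change -1.32 ± 0.08, adjusted p = 2.08e-18), and so was Unc5b (14.1 ± 0.238 CPM and 33.3 ± 2.41 CPM). The other 4 calls were Dcc, Slit3 and Unc5cl, which were higher, and Sema7a, which was lower, all below 1 CPM in both groups.

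From day 8 to day 42 of COMBO, 13 members rose and 18 fell (11% and 14.7% of all genes). Of the 8 ephrins, 5 fell and 0 rose. At day 8 and day 42, Efna1 had 22.4, 21.5 and 20.9 CPM and 0.259, 0.349 and 0.178 CPM (log2 fold change -6.32 ± 0.12, adjusted p = 1.75e-36), and Efnb2 had 384, 386 and 389 CPM and 18.4, 17.2 and 16.8 CPM (log2 fold change -4.47 ± 0.03, adjusted p = 9.34e-52). Epha2 and Ephb4, receptors of these ligands, fell as well. Epha2 had 8.15, 7.70 and 7.08 CPM at day 8 and 0.162, 0.159 and 0.214 CPM at day 42 (log2 fold change -5.39 ± 0.20, adjusted p = 1.90e-26), and Ephb4 averaged 34.6 ± 1.59 CPM and 1.43 ± 0.338 CPM (log2 fold change -4.59 ± 0.12, adjusted p = 2.27e-32). The membrane semaphorin Sema4a averaged 40.2 ± 1.06 CPM at day 8 and 0.280 ± 0.102 CPM at day 42 (log2 fold change -7.16 ± 0.13, adjusted p = 3.83e-37). The basal markers summed to 9079.9 to 9308 CPM at day 8 and 2.10 to 2.35 CPM at day 42, and their part in these falls was not tested.

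In all, 11 of 66 members (7.68% of all genes) had risen by day 8 and rose again by day 42, namely Dcc, Epha5, Ephb1, Ntn1, Ntn4, Plxna4, Plxnb3, Plxnc1, Sema5b, Unc5c and Unc5d. Both steps use the same COMBO day 8 libraries, so that they are not independent. Netrin signalling genes made up 5 of these 11, though not all were well counted. Unc5c averaged 2.90 CPM at day 42. Unc5d had 3, 1 and 4 counts at day 8 and 10, 3 and 8 counts at day 42. Sema5b, also among the 11, had 4, 2 and 1 counts and 12, 15 and 15 counts. At day 8 and day 42, Dcc had 0.374, 0.509 and 0.778 CPM and 30.2, 30.2 and 28.7 CPM (log2 fold change 5.71 ± 0.17, adjusted p = 3.35e-30), and Ntn1 had 18.7, 18.2 and 17.7 CPM and 88.5, 89.9 and 91.0 CPM (log2 fold change 2.30 ± 0.04, adjusted p = 1.93e-38). Ligand and receptor were thus both above 20 CPM at day 42, and below that at day 8. Plxnc1, the plexin bound by Sema7a, had 1.8, 1.86 and 3.25 CPM and 18.5, 14.3 and 15.5 CPM at the same times (log2 fold change 2.78 ± 0.15, adjusted p = 1.61e-20), and Ntn4, a netrin of basement membranes, averaged 36.2 ± 0.861 CPM and 91.3 ± 1.61 CPM (log2 fold change 1.34 ± 0.05, adjusted p = 2.43e-26). A further 20 members had risen by day 8 and were not called afterwards (12.5% of all genes), and 14 that were not called at day 8 fell by day 42 (6.75% of all genes). Efna1, Epha1, Epha2 and Nrp2 fell at both steps, 4 of 66 members, which is close to the share of all genes (5.55% of all genes), and 0 members rose and then fell (2.43% of all genes). Against DMSO, COMBO day 42 raised 33 members and lowered 19 (25% and 24.4% of all genes), which left 14 of 66 uncalled. At that time Epha5 averaged 59.8 ± 0.928 CPM and Epha2 0.178 ± 0.0310 CPM, against 0 and 78.5 ± 4.09 CPM in DMSO.

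Averaged over the 3 NEPC lines, 30 of 66 members were higher and 19 lower than in PRAD DMSO organoids (24.1% and 23.7% of all genes), with a median log2 fold change of 0.78 over members and -0.02 over all genes. Epha5, Nrp1, Slit1, Ntn1, Dcc, Plxna4, Plxnc1, Sema3e and Sema4f were again among the genes that were higher, and Epha2, Nrp2, Efna1, Epha1, Sema3c and Efnb2 among those that were lower. The basal markers summed to 2.63 to 4.59 CPM, 5.41 to 6.48 CPM and 0.695 to 1.21 CPM in NEPC-1, NEPC-2 and NEPC-3, against 15402 to 16102 CPM in DMSO, and the neuroendocrine markers to 1691 to 1729 CPM, 2036 to 2146 CPM and 1280.3 to 1326 CPM, against 0.115 to 0.657 CPM. Dcn was at 0.145, 0.0848 and 0.0211 CPM as a mean in the lines, against 84.1 ± 2.23 CPM. The part of these markers in the members' differences was not tested. Epha2 was between 0.3 and 1 CPM in the 9 NEPC libraries (means 0.489, 0.632 and 0.674 CPM in NEPC-1, NEPC-2 and NEPC-3), against 78.5 ± 4.09 CPM in DMSO (log2 fold change -7.03 ± 0.07, adjusted p = 4.87e-48). Epha5 had means of 23.5, 21.1 and 30.8 CPM in the same lines, against 0 in DMSO. Ephb4, which binds Efnb2, had 0.875, 0.226 and 0.323 CPM, against 39.8 ± 2.54 CPM in DMSO (log2 fold change -6.62 ± 0.10, adjusted p = 2.89e-41).

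Against PRAD organoids at COMBO day 42, the NEPC lines were higher in 14 members and lower in 17 (8.84% and 9.87% of all genes). Sema5b, a membrane semaphorin of class 5, separated them most among the semaphorins. It had 15.2, 13.2 and 12.9 CPM in NEPC-1, 13.2, 11.8 and 12.9 CPM in NEPC-2 and 22.1, 21.9 and 20.9 CPM in NEPC-3, against 0.388, 0.476 and 0.535 CPM at COMBO day 42 (log2 fold change 5.05 ± 0.18, adjusted p = 2.67e-22). The netrin receptor Unc5d was likewise higher in the lines (log2 fold change 4.30 ± 0.31, adjusted p = 6.52e-15), with 8.32 ± 0.999 CPM, 0.998 ± 0.164 CPM and 12.3 ± 0.518 CPM in NEPC-1 to NEPC-3 and 0.235 ± 0.122 CPM at COMBO day 42. Robo2 was lower in the lines, with 15.9 ± 0.715 CPM, 1.35 ± 0.281 CPM and 9.26 ± 0.647 CPM, against 71.4 ± 3.53 CPM (log2 fold change -3.62 ± 0.05, adjusted p = 9.21e-41). Slit1, its ligand, had means of 53.1, 16.5 and 36.2 CPM in the lines and 19.4 ± 1.29 CPM at COMBO day 42. Sema3c, Sema3d and Sema3e were also lower in the lines, with Sema3e at 84.3, 73.9 and 21.6 CPM and 117 ± 2.27 CPM at COMBO day 42 (log2 fold change -1.20 ± 0.04, adjusted p = 2.76e-28). For Sema3e the fall was largest in NEPC-3. Where a comparison averages over lines, the standard error and p-value leave out the spread between lines.

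The NEPC lines differed among themselves. Each line set against the mean of the other 2 gave 19 members higher and 9 lower in NEPC-1 (9.51% and 3.68% of all genes), 11 and 17 in NEPC-2 (6.51% and 6.14%), and 11 and 10 in NEPC-3 (4.42% and 8.82%). Ntn1 had 645, 627 and 628 CPM in NEPC-2, 577, 572 and 535 CPM in NEPC-3 and 88.4, 93.7 and 89.2 CPM in NEPC-1, and NEPC-1 was lower than the others (log2 fold change -2.72 ± 0.03, adjusted p = 6.69e-45). Per kilobase, Ntn1 in NEPC-2 was the most abundant of all members in that line, at 101 ± 1.57 CPM per kb, ahead of Ntn4 at 51.6 ± 1.70. Ntn1 also led the members per kilobase in NEPC-3, so its lead was not particular to NEPC-2. Sema4a was higher in NEPC-1, at 13.7, 16 and 17.8 CPM, against 0.265 ± 0.112 CPM in NEPC-2 and 0.221 ± 0.0394 CPM in NEPC-3 (log2 fold change 6.00 ± 0.13, adjusted p = 1.67e-34). NEPC-2 stood low in Efna5, with 2.20, 1.82 and 3.09 CPM, against 46.9 ± 1.84 CPM in NEPC-1 and 16.4 ± 0.947 CPM in NEPC-3 (log2 fold change -3.53 ± 0.09, adjusted p = 2.31e-31). Robo2 and Slit2 were lower in NEPC-2 too, Robo2 at 1.35 ± 0.281 CPM, against 15.9 ± 0.715 CPM in NEPC-1 and 9.26 ± 0.647 CPM in NEPC-3 (log2 fold change -3.18 ± 0.11, adjusted p = 3.62e-27), and Slit2 at 0.319 ± 0.261 CPM, against 5.27 ± 0.291 CPM and 4.49 ± 0.124 CPM. NEPC-3 was lower than the others in Sema5a, at 8.21 ± 0.188 CPM, against 27.7 ± 0.813 CPM in NEPC-1 and 85.0 ± 4.37 CPM in NEPC-2 (log2 fold change -2.56 ± 0.05, adjusted p = 1.10e-36).

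**Figure D3:**
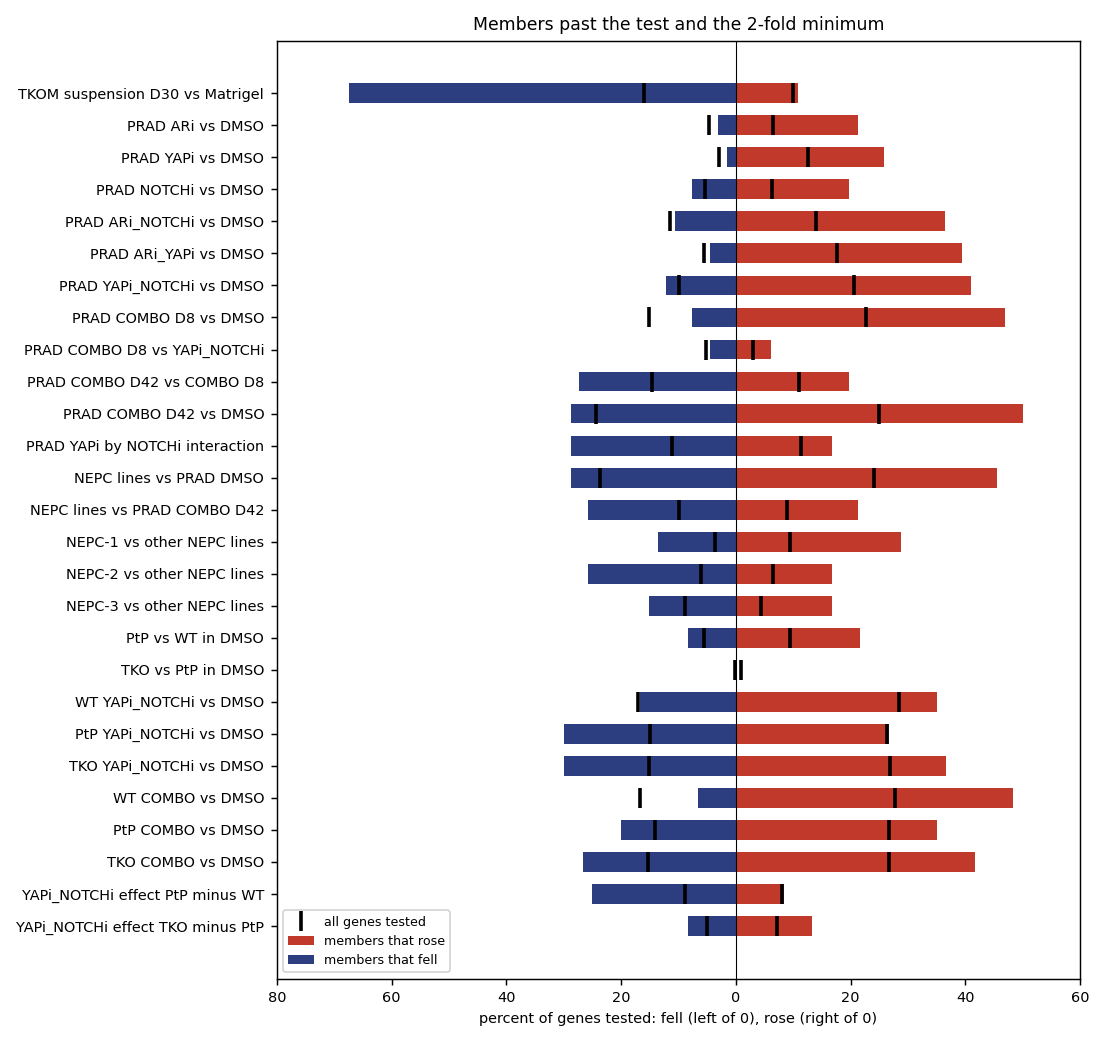
Percent of tested members that rose (right of 0) and fell (left of 0) in each of the 27 comparisons, with black ticks for the same percent over all genes tested. For TKOM suspension 31 of 46 members fell; for TKO against PtP organoids in DMSO no bar is drawn because no member was called.

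In DMSO, members differed between PtP and WT organoids, and none was called between TKO and PtP. PtP organoids were higher than WT in 13 of 60 members and lower in 5 (9.4% and 5.61% of all genes), and 7 of the 13 were semaphorins. Sema6a, a membrane semaphorin that binds class A plexins, had 17.2, 17.6 and 19.1 CPM in PtP, against 1.79, 2.69 and 1.78 CPM in WT (log2 fold change 3.08 ± 0.13, adjusted p = 1.35e-23). Sema4g had 4.66, 5.08 and 3.86 CPM in PtP, against 0.894, 0.661 and 0.535 CPM in WT (log2 fold change 2.69 ± 0.19, adjusted p = 3.34e-16), and Unc5a had 26, 24.4 and 25.2 CPM, against 5.10, 4.82 and 5.47 CPM (log2 fold change 2.30 ± 0.09, adjusted p = 2.12e-25). The PtP and WT libraries did not overlap for these 3 genes, nor for 62.8% of all genes. Efna3 went the other way, at 4.44 ± 0.229 CPM in PtP, against 18.2 ± 0.863 CPM in WT (log2 fold change -2.03 ± 0.10, adjusted p = 1.03e-21), as did Epha7 (6.34 ± 0.963 CPM and 18.5 ± 0.446 CPM, log2 fold change -1.55 ± 0.10, adjusted p = 1.43e-17). The basal markers (4 of 4 measured) summed to 10333 to 10476 CPM in PtP and 19713 to 19958 CPM in WT, and the luminal markers (5 of 5) to 3692 to 3745 CPM and 1917 to 1944 CPM. Dcn averaged 160.4 ± 0.845 CPM in PtP and 5.93 ± 0.230 CPM in WT, Pdgfra 0.179 ± 0.0774 CPM and 0.134 ± 0.0916 CPM, and Cd68, the 1 immune marker of 5 measured, 39 ± 2.69 CPM and 17.3 ± 1.28 CPM. The part of these markers in the members' differences was not tested. Between TKO and PtP, edgeR called 0 of 60 members in either direction (0.922% and 0.239% of all genes), and DESeq2 called 0 as well. At an unadjusted p under 0.05 there were 25 members, and 22 kept an adjusted p under 0.05 with changes of less than 2-fold, the largest being 0.72 on the log2 scale. Without PtP_DMSO_D8 replicate 2, the ephrin Efnb3 was called as higher in TKO. Its means were 0.682 ± 0.103 CPM in TKO and 0.462 ± 0.290 CPM in PtP.

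YAPi_NOTCHi changed the members in all 3 genotypes. It raised 22 of 60 and lowered 18 in TKO (26.9% and 15.1% of all genes), raised 16 and lowered 18 in PtP (26.4% and 14.9%), and raised 21 and lowered 10 in WT (28.5% and 17.1%). The share that rose was thus close to that of all genes in PtP, and the share that fell close to it in WT. Epha2 had 6.88, 5.46 and 6.15 CPM in treated TKO, against 146, 144 and 143 CPM in TKO DMSO (log2 fold change -4.55 ± 0.05, adjusted p = 2.51e-45). It had 8.79, 10.3 and 9.76 CPM in treated PtP, against 181, 189 and 182 CPM in PtP DMSO (log2 fold change -4.23 ± 0.04, adjusted p = 8.72e-46). In WT it had 12.7, 12.4 and 13.2 CPM, against 293, 298 and 289.9 CPM in WT DMSO (log2 fold change -4.53 ± 0.04, adjusted p = 1.26e-48). Nrp2 fell alongside in each genotype, by 4.94 ± 0.08, 5.68 ± 0.10 and 5.23 ± 0.07 on the log2 scale in TKO, PtP and WT. Both genes thus fell in WT organoids as well as in PtP and TKO.

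Epha5, Nrp1 and several semaphorins rose in every genotype, to differing levels. Epha5 had 9.82, 11.3 and 9.68 CPM in treated TKO and 0 in all TKO DMSO libraries, at least 259-fold higher. In treated PtP it had 1.25, 1.14 and 0.958 CPM, against 0, 0.0466 and 0 CPM in PtP DMSO, and in treated WT 0.560, 0.389 and 0.557 CPM, against 0 in all WT DMSO libraries. Slit1 was called in TKO and not in PtP or WT. In TKO it had 3.75, 3.46 and 3.56 CPM, against 0.0981, 0.174 and 0.240 CPM in DMSO (log2 fold change 4.35 ± 0.26, adjusted p = 5.69e-19). It had 0.423 ± 0.0659 CPM in treated PtP and 0.239 ± 0.0948 CPM in PtP DMSO, and 0.257 ± 0.0778 CPM in treated WT and 0.270 ± 0.133 CPM in WT DMSO. Nrp1 averaged 32.7 ± 1.74 CPM in treated TKO and 4.29 ± 0.615 CPM in TKO DMSO, 19.8 ± 0.594 CPM and 2.61 ± 0.501 CPM in PtP, and 9.05 ± 0.286 CPM and 4.10 ± 0.377 CPM in WT, and rose in all 3. Sema4c, Sema4g, Sema5a and Sema6c also rose in every genotype; Sema6c averaged 3.31 ± 0.392 CPM, 3.06 ± 0.190 CPM and 4.53 ± 0.389 CPM in treated TKO, PtP and WT, against 0.649 ± 0.0198 CPM, 0.948 ± 0.0964 CPM and 0.277 ± 0.0479 CPM in DMSO. The Sema4c call in TKO was lost without TKO_DMSO_D8 replicate 3 (log2 fold change 1.00, against 1.01 with it).

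**Figure D4:**
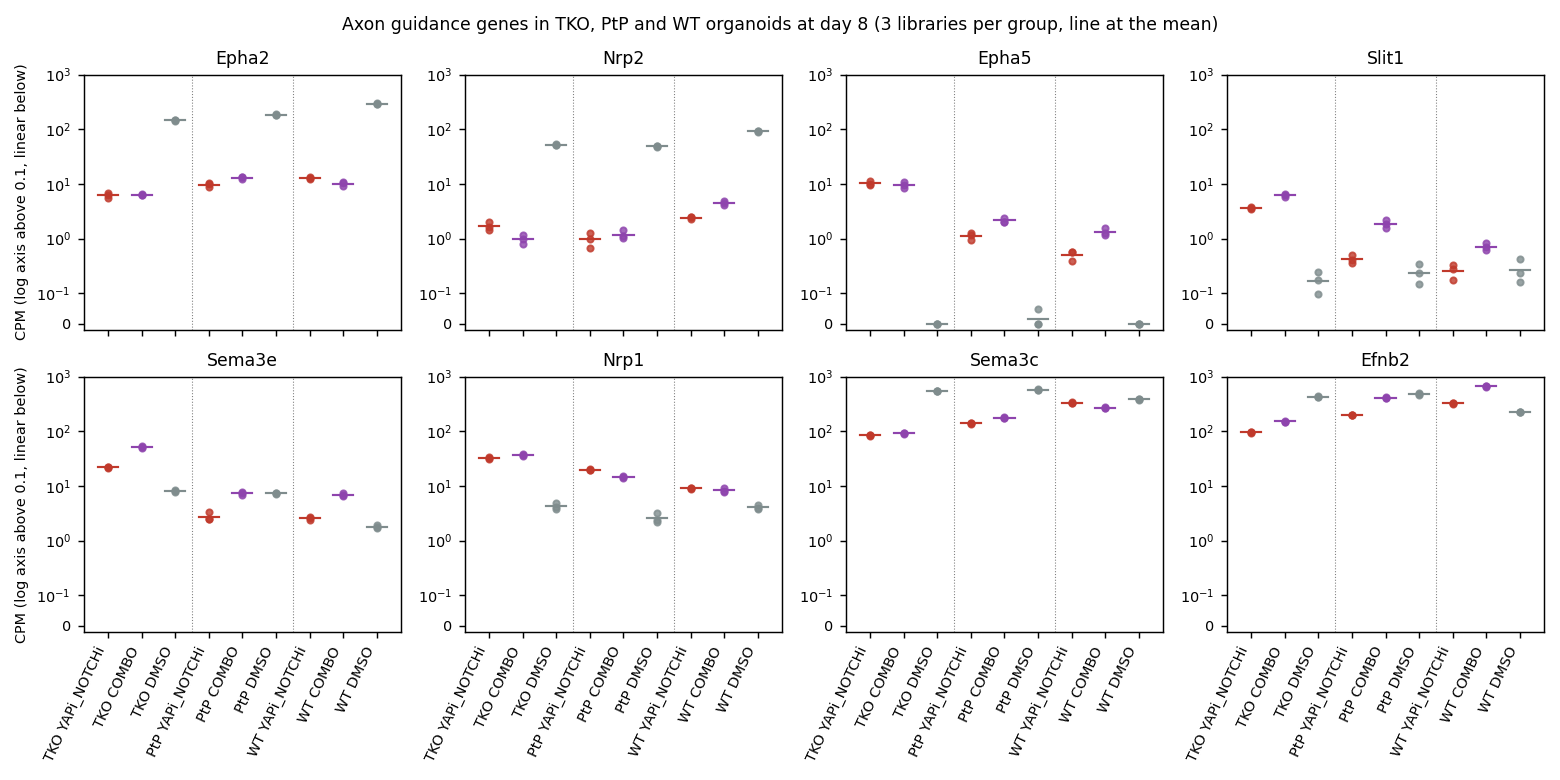
CPM of 8 members in TKO, PtP and WT organoids at day 8 under YAPi_NOTCHi (red), COMBO (purple) and DMSO (grey), on an axis that is logarithmic above 0.1 and linear below. Points are libraries (3 per group) and lines are means; Epha2 and Nrp2 are lower under both treatments in every genotype, whereas Epha5 and Slit1 reach their highest levels in TKO.

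The differences between genotypes in the YAPi_NOTCHi response were tested directly. Set against WT, the response of PtP was higher in 5 members and lower in 15 (8.06% and 8.9% of all genes). Of the 15, 10 were semaphorins, of which 19 were tested. The PtP and WT DMSO libraries are those compared above, so these counts are not independent of the DMSO differences between PtP and WT. For Sema6a the difference in log2 response was -3.22 ± 0.38 (adjusted p = 8.95e-10), with treated levels of 0.403 ± 0.192 CPM in PtP and 0.519 ± 0.115 CPM in WT. Sema3c had 141 ± 5.05 CPM in treated PtP, against 579 ± 10 CPM in PtP DMSO, and 335 ± 2.53 CPM in treated WT, against 386 ± 8.54 CPM in WT DMSO, a difference in log2 response of -1.84 ± 0.04 (adjusted p = 5.75e-35). Nrp1 responded more in PtP than in WT, by 1.79 ± 0.16 (adjusted p = 9.58e-13). Set against PtP, the response of TKO was higher in 8 members and lower in 5 (7.19% and 5.11% of all genes), with Slit1 at 3.51 ± 0.58 (adjusted p = 1.54e-06) and Sema3e at 2.88 ± 0.12 (adjusted p = 6.04e-23). Neither Nrp1 (0.007 ± 0.17, adjusted p = 0.99) nor Epha5 (5.35 ± 2.42, adjusted p = 0.062) was called in this test. The Epha5 value rests on DMSO levels at or near 0. Sema3e had 21.8, 22.7 and 22.4 CPM in treated TKO, against 7.90, 8.54 and 8.01 CPM in TKO DMSO, and 2.5, 2.5 and 3.28 CPM in treated PtP, against 7.10, 7.51 and 7.57 CPM in PtP DMSO, so that it rose in TKO and fell in PtP. The neuroendocrine markers summed to 612 to 627 CPM in treated TKO, 152 to 161 CPM in treated PtP and 126 to 133 CPM in treated WT. The basal markers summed to 2724 to 2766 CPM in treated TKO, against 8870.0 to 8914 CPM in TKO DMSO, 7017 to 7168 CPM in treated PtP, against 10333 to 10476 CPM in PtP DMSO, and 11362 to 11706 CPM in treated WT, against 19713 to 19958 CPM in WT DMSO. Dcn was lower in treated TKO and PtP and higher in treated WT, at 40 ± 1.5 CPM in treated TKO, against 182 ± 5.25 CPM in TKO DMSO, 54.1 ± 2.28 CPM in treated PtP, against 160.4 ± 0.845 CPM in PtP DMSO, and 346 ± 2.46 CPM in treated WT, against 5.93 ± 0.230 CPM in WT DMSO. The part of these markers in the differences was not tested.

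COMBO gave 25 of 60 members higher and 16 lower in TKO (26.7% and 15.4% of all genes), 21 and 12 in PtP (26.7% and 14.1%), and 29 and 4 in WT (27.8% and 16.7%). In WT, 12 of 19 semaphorins rose and Sema7a alone fell. Sema6d, a membrane semaphorin, had 40.9, 38.1 and 37.4 CPM in WT under COMBO, against 3.16, 3.73 and 4.70 CPM in WT DMSO (log2 fold change 3.34 ± 0.09, adjusted p = 9.94e-31), and Sema5a had 79.5, 78.8 and 77.5 CPM, against 10.3, 9.58 and 9.46 CPM (log2 fold change 3.00 ± 0.05, adjusted p = 3.36e-38). In TKO, Sema3e had 52.9, 49.0 and 51.9 CPM under COMBO, against 7.90, 8.54 and 8.01 CPM in DMSO (log2 fold change 2.65 ± 0.06, adjusted p = 1.05e-34), and Robo2 had 45.4, 46.0 and 47.2 CPM, against 8.93, 7.59 and 8.35 CPM (log2 fold change 2.49 ± 0.06, adjusted p = 1.17e-32). The 4 members that fell in WT were Efnb1, Epha2, Nrp2 and Sema7a, each of which also fell in PtP and TKO under COMBO.

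The PRAD and genotype tables share no library, so the YAPi_NOTCHi calls can be set side by side. Of 35 members called in PRAD and 40 in TKO, 25 were called in both, which is 71.4% and 62.5% of each list, beside 66.1% and 48.3% over all genes called. Of these 25, 23 moved in the same direction, Plxnd1 and Sema3d excepted (96.9% of all genes called in both). For PtP, 20 were common (57.1% of the PRAD calls and 58.8% of the PtP calls, beside 61% and 45.1% over all genes). Of these, 16 had the same direction (96.0% of all genes called in both), the exceptions being Efna5, Sema3d, Sema3e and Slit2. For WT, 18 were common (51.4% and 58.1%, beside 62.8% and 42.2% over all genes), and 16 had the same direction (92.8% of all genes called in both), Epha7 and Slit3 excepted. The tables were scaled separately, so levels are not compared between them.

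In TKOM organoids, suspension culture was accompanied by lower levels of most members. Of 46 tested, 31 were lower and 5 higher at suspension day 30 than in Matrigel, where 16% of all genes fell and 10% rose, and the median log2 fold change was -1.39 over members and -0.0044 over all genes. Of 9 tested Eph receptors, 8 fell. Epha2 had 4.69, 5.76 and 4.30 CPM in suspension, against 111, 105 and 103 CPM in Matrigel (log2 fold change -4.43 ± 0.07, adjusted p = 6.60e-19), and Ephb2 had 6.75, 6.73 and 5.80 CPM, against 68.8, 69.6 and 65.2 CPM (log2 fold change -3.40 ± 0.06, adjusted p = 6.04e-18). The ephrins Efnb2 and Efna1 were lower too, with Efnb2 at 28, 26.2 and 27.4 CPM, against 128, 133 and 134 CPM (log2 fold change -2.28 ± 0.04, adjusted p = 3.27e-18), and Efna1 at 22.7 ± 1.12 CPM, against 46.7 ± 1.89 CPM (log2 fold change -1.04 ± 0.05, adjusted p = 5.54e-12). None of these 4 genes overlapped between the cultures, and neither did 78.6% of all genes. Of the other ephrins, Efna2, Efna5 and Efnb1 fell, and Efna3 was lower but not called. Efnb3 rose (2.42 ± 0.150 CPM in suspension, 0.956 ± 0.205 CPM in Matrigel), and Efna4 was higher but not called.

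Robo2 had the largest fall, to 0.136, 0.0311 and 0.0624 CPM in suspension, against 3.81, 5.08 and 3.76 CPM in Matrigel (log2 fold change -5.67 ± 0.33, adjusted p = 6.05e-11), and Robo1 and Slit2 fell as well. The Robo2 values in suspension rest on 5, 1 and 2 counts, so the size of its fall is uncertain. Sema5a had 0.217, 0.311 and 0.187 CPM, against 3.12, 3.57 and 3.02 CPM (log2 fold change -3.75 ± 0.26, adjusted p = 6.12e-10), and Plxna2, a receptor of class 3 and class 6 semaphorins, 2.25 ± 0.331 CPM, against 15.4 ± 0.653 CPM (log2 fold change -2.78 ± 0.11, adjusted p = 3.61e-13). The 5 members that rose were Efnb3, Epha8, Ntn1, Sema3a and Sema5b. Ntn1 had 2.55, 2.30 and 2.34 CPM in suspension, against 0.0508, 0 and 0.0530 CPM in Matrigel (adjusted p = 6.27e-10), and Sema5b had 1.41, 1.31 and 1.12 CPM against 0 in all 3 Matrigel libraries, at least 46.4-fold higher. The Epha8 call was lost without TKOM_Matrigel replicate 3 (log2 fold change 0.99 with an adjusted p of 2.19e-04, against 1.17 and 5.65e-05 with it).

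Unlike in the YAPi_NOTCHi arms, Nrp2 was not called in TKOM suspension, at 84.9, 84.6 and 88.6 CPM, against 125, 124 and 120.1 CPM in Matrigel (log2 fold change -0.52 ± 0.03), and the difference between the tables was not tested. Sema3c was not called either, at 113 ± 4.30 CPM in suspension and 107 ± 3.41 CPM in Matrigel. The basal markers (4 of 4 measured) summed to 30.4 to 34.9 CPM in suspension and 2509 to 2717 CPM in Matrigel, the neuroendocrine markers (Insm1 and Foxa2, 2 of 5 measured) to 30.3 to 32.2 CPM and 0.0322 to 0.229 CPM, and Pecam1, the 1 endothelial marker of 6 measured, to 12.5 to 13 CPM and 0.239 to 0.406 CPM. Dcn, the 1 fibroblast marker of 6 measured, averaged 0.00904 ± 0.0157 CPM in suspension and 11.1 ± 0.714 CPM in Matrigel, and Cd68, the 1 immune marker of 5 measured, 3.42 ± 0.481 CPM and 91.0 ± 2.35 CPM. The part of these markers in the members' change was not tested. Another 8 members did not pass the count filter, with group means of at most 0.486 CPM. Of 36 members called here and 49 called between the NEPC lines and PRAD DMSO, 26 were common, 72.2% and 53.1% of each list, beside 68.0% and 31.4% over all genes called. Of these 26, 17 had the same direction (82.4% of all genes called in both), and Epha7, Ephb6, Nrp1, Plxna2 and Unc5a were among those that were lower in suspension and higher in the NEPC lines.

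**Figure D5:**
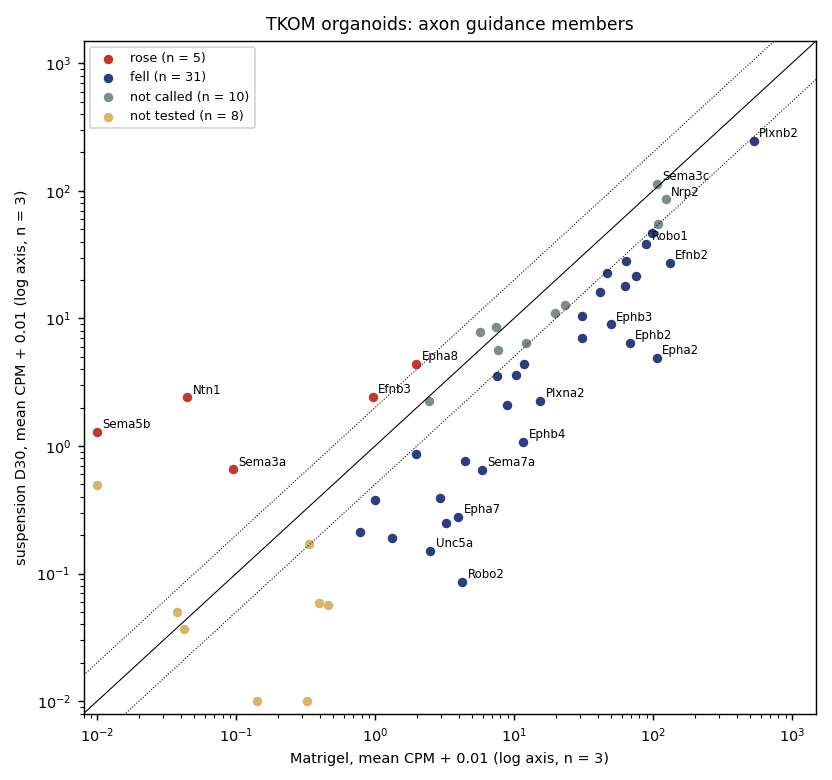
Mean CPM + 0.01 of 54 members in TKOM organoids at suspension day 30 (vertical) against Matrigel (horizontal), both on log axes, n = 3 libraries each. The solid line marks equal levels and the dotted lines 2-fold changes; 31 members fell, 5 rose, 10 were not called and 8 were not tested.

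Co-receptors and intracellular partners of the pathway, listed separately from the members, moved to a varying degree. Under YAPi_NOTCHi in PRAD organoids, 23 of 45 tested effectors rose and 2 fell (20.6% and 9.89% of all genes), with a median log2 fold change of 1.07, beside 0.05 over all genes. In the NEPC lines 22 rose and 10 fell against PRAD DMSO (24.1% and 23.7% of all genes), so that the share that fell was close to that of all genes. In TKOM suspension 3 of 33 rose and 8 fell (10% and 16% of all genes), the share that rose being close to that of all genes, with a median of -0.68. Dpysl3, a collapsin response mediator that acts downstream of class 3 semaphorins, averaged 9.07 ± 0.374 CPM under YAPi_NOTCHi and 0.199 ± 0.0605 CPM in DMSO (log2 fold change 5.50 ± 0.24, adjusted p = 1.63e-23). Neo1, a Dcc relative that binds netrins, averaged 109.8 ± 1.13 CPM and 69.1 ± 1.87 CPM in the same groups and was not called (log2 fold change 0.67 ± 0.04, adjusted p = 4.79e-20).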

How the data were processed

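The study measured RNA of mouse prostate organoids in 69 bulk libraries, 3 in each of 23 groups taken from the sample labels. The authors deposited unscaled estimated counts for each gene, with genome build mm10 per the submitters' processing notes. With the aligner, counter, annotation and strand use not given in the sources used here, reads of overlapping or antisense genes cannot be told apart. Lines without a gene name (10, 11 and 12 in the 3 tables, at most 0.0114% of a library) were left out, and lines that share a name (15, 16 and 17 names) were summed. Values were rounded to whole counts and fitted on each whole table, all groups together, with edgeR 4.0.16 (R 4.3.3, limma 3.58.1): TMM scaling, filterByExpr with a minimum count of 10, the quasi-likelihood F test, 2-sided, and Benjamini-Hochberg adjustment over all genes kept. The standard error is the log2 fold change divided by the square root of F. The biological coefficient of variation was 3.63%, 3.85% and 2.37%. The fit was tested on simulated counts. Members may all be named; library values are given mainly for the members with the largest changes in each family at 1 CPM or more, and other named members were chosen for their roles or for values seen. The members and gene lists were chosen with earlier results of these data known. One gene of the neuroendocrine marker list is not reported here and is left out of its sums. Same-numbered replicates did not deviate together, so replicates were treated as unpaired. Alternatives were DESeq2 1.42.0, RLE scaling, no count filter, a replicate block and leaving out each library in turn. Promoters are from RefSeq, GRCm38.p6.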

Additional observations from a re-analysis of the deposited data

Results flagged for a closer look

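The response to YAPi_NOTCHi differed between genotypes, by a test of the difference of log2 fold changes past an adjusted p of 0.05 and 2-fold in edgeR, for the genes given here with at least 1 CPM. Each value is the response of the first genotype minus that of the second.

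For PtP minus WT, the difference was above 0 for Efna3 (1.40), Efnb3 (1.89), Nrp1 (1.79) and Robo2 (1.08). It was below 0 for Efnb2 (-1.83), Sema3a (-3.10), Sema3b (-2.14), Sema3c (-1.84), Sema3d (-2.09), Sema3e (-1.95), Sema4g (-1.32), Sema5a (-1.63), Sema6a (-3.22), Sema6c (-2.31), Sema6d (-1.59), Slit2 (-1.26), Unc5a (-2.83) and Unc5b (-1.86).

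For TKO minus PtP, the difference was above 0 for Plxna2 (1.06), Plxnc1 (3.55), Robo2 (1.04), Sema3a (1.26), Sema3e (2.88), Sema4f (1.74), Slit1 (3.51) and Slit2 (1.12). It was below 0 for Efna4 (-1.25), Epha1 (-1.01), Sema3f (-1.02), Sema6d (-1.39) and Unc5b (-1.11).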

How the results depend on the processing

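Of 618 recomputed counts of members, 613 were within 1.5 times the reported count, and of 7259 recomputed single-gene values 105 changed their call and 0 reversed. The members that fell under ARi in PRAD organoids numbered 2, and 1 with RLE scaling, 1 with DESeq2 and 1 to 3 when 1 library was left out. The members that fell under ARi_NOTCHi numbered 7, and 4 to 7 when 1 library was left out. The members higher in TKO than in PtP in DMSO numbered 0, and 0 to 1 when 1 library was left out. The cause was not tested, apart from the smaller number of libraries. With the replicate number as a replicate block, all 54 counts were within 1.5 times and 44 were equal (28 members rose under YAPi_NOTCHi in PRAD, against 27 without it); replicate numbers did not pair the libraries. Another scaling moved the median of all genes by at most 0.094 on the log2 scale. Values under about 0.1 CPM rest on a few counts, so folds against such groups are mostly left out or given as lower bounds. The fall of Robo2 in TKOM suspension and the Plxnc1 difference between TKO and PtP do rest on such values, and their sizes are uncertain. Of the differences in response between TKO and PtP, those of Epha1, Plxnc1, Robo2, Sema3f, Sema4f and Slit2 lost their call under at least 1 alternative. A group of 3 libraries bounds the precision of each value.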
